A study of Mus musculus with 24 samples.

Results

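The genes described here encode the enzymes, carriers and membrane proteins of the lysosome and the proton pump that acidifies it, followed in mouse hearts through experimental autoimmune myocarditis (EAM). The list holds 42 genes of the 41388 in the count table, it was given by symbol, and each symbol matched 1 Ensembl gene. By role these were 7 cysteine cathepsins, 4 other lysosomal proteases, 7 glycosidases and lipid-degrading enzymes, 5 cofactors and carriers, 6 subunits of the V1 sector and 5 of the V0 sector of the pump, 7 membrane proteins and channels, and the regulator Tfeb. Heart RNA, from part of the organ, came from 24 male wild type Balb/c mice (BALB/cAnNCrl in the study's methods), with 4 EAM and 4 control hearts at each of D10, D15 and D21 after the first immunisation. EAM mice, aged 8 to 10 weeks, were immunised on day 0 and day 7 with a peptide of α myosin heavy chain in supplemented complete Freund's adjuvant (SCFA) and received pertussis toxin (PTX) on day 0. Control mice received SCFA with PBS on day 0 and day 7 and PTX on day 0, so adjuvant and toxin were common to all 6 groups. By the study's methods, hearts were picked for the presence of inflammation where this could be met, since not every immunised mouse may develop it.

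Lysosomes are acidic organelles in which proteases, glycosidases and lipases digest material brought in by endocytosis, phagocytosis and autophagy. The vacuolar ATPase pumps protons across their membrane: its V1 sector splits ATP in the cytosol and its V0 sector carries the protons through the lipid layer. Every cell type in the heart has lysosomes, cardiomyocytes included, while macrophages are especially rich in them and use several cathepsins, cathepsin S above all, in processing antigens for presentation.

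Depth and library differences bear on all values below. Total counts ranged from 15814863 to 24980864 per heart. The 4 EAM libraries of D21 carried another library code than the other 20, and their 4 atrial markers summed to 52.4 to 176 CPM (counts made comparable between libraries of different size) against 1179 to 1896 in D21 controls, so library code, atrial content and EAM cannot be told apart at D21. The same sum ranged from 121 to 309.4 in D10 controls and 354 to 1374 in D10 EAM hearts, and from 143 to 1673 and 465 to 1267 at D15. At D10 the groups did not overlap in it, so that atrial content and EAM cannot be told apart there either. At D10, EAM heart 1 stood apart with 194 CPM of Ptprc, the common leucocyte antigen gene, against 27.7 to 56.7 in the other EAM hearts. Markers of macrophages and monocytes (13 genes) summed to 781 to 1541 CPM in D10 controls and 1236 to 3513 in D10 EAM hearts, to 704 to 823 and 4051 to 5767 at D15, and to 628 to 1006 and 1629 to 5341 at D21. In bulk tissue more cells of a type and more RNA per cell cannot be told apart.

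Promoter sequences are shown first because lysosomal genes are known to share a motif, the CLEAR element, whose core TCACGTGA is bound by TFEB and its relatives and contains the E-box CACGTG. Promoters of 300 bases, from 250 before to 50 after the start, were available from RefSeq (GRCm38.p6) for 35 of the 42 genes. Searched on both strands, TCACGTGA stood in the promoter of 5 of these 35 (14.3%), Atp6v0d1, Atp6v1a, Ctsa, Ctsd and Mcoln1, against 1.12% of 27025 mouse genes. The shorter CACGTG, which every TCACGTGA includes, stood in 11 (31.4%) against 8.09% of genes. GAGGAAGT, a purine-rich motif of the kind bound by the myeloid factor PU.1, stood in 3, Ctsc, Ctss and Gusb (8.57%), against 3.69% of genes. Ctsa, with TCACGTGA at 2 places and a log2 fold change of 1.25 at D15, is not printed. The stretches below are those of some of the genes with a match, read 5′ to 3′ along the gene's strand, with the motif in capitals:
Ctsd, chr7:142387900-142387945, minus strand, TCACGTGA: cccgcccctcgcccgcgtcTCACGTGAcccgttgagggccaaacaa
Atp6v1a, chr16:44139365-44139410, minus strand, TCACGTGA: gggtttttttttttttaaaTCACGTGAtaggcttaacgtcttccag
Atp6v0d1, chr8:105566042-105566087, minus strand, TCACGTGA: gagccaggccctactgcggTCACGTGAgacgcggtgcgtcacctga
Mcoln1, chr8:3500428-3500499, plus strand, CACGTG and TCACGTGA: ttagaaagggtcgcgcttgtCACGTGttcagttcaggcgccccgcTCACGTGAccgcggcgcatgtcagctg
Lamp1, chr8:13159080-13159171, plus strand, CACGTG at 4 places: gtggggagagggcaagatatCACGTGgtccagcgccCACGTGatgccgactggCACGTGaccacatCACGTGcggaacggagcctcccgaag
Ctss, chr3:95526764-95526810, plus strand, GAGGAAGT on the opposite strand: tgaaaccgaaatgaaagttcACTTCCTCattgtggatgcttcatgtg
Ctsc, chr7:88277914-88277961, plus strand, GAGGAAGT on the opposite strand: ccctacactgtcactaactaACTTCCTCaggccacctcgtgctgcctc
The median log2 fold change at D15, described below gene by gene, was 0.92 over the 5 genes with TCACGTGA and 1.10 over the 30 without, and 3.95 over the 3 genes with GAGGAAGT and 0.98 over the 32 without. A match is a run of letters and was not tested as a binding site.

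In control hearts the most abundant transcripts of the list, per kilobase of exon, were those of general lysosomal function. Psap, the precursor of the saposins that help enzymes reach their lipid substrates, averaged 529.6 CPM per kb over the 12 control hearts, and Ctsd, the aspartic protease cathepsin D, averaged 514. Lamp1, the most abundant lysosomal membrane glycoprotein, followed with 246 and the cysteine protease gene Ctsb with 130.2. At the other end stood Mcoln2, encoding a cation channel related to mucolipin 1, with 0.389 CPM per kb, and Atp6v0d2, an alternative d subunit of the V0 sector, with 0.276. In D15 EAM hearts Psap and Ctsd were still first and second, with 979 and 774 CPM per kb, and Ctss, the gene of cathepsin S, had moved from 16th place (34.6 CPM per kb in controls) to 3rd (761).

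**Figure D1:**
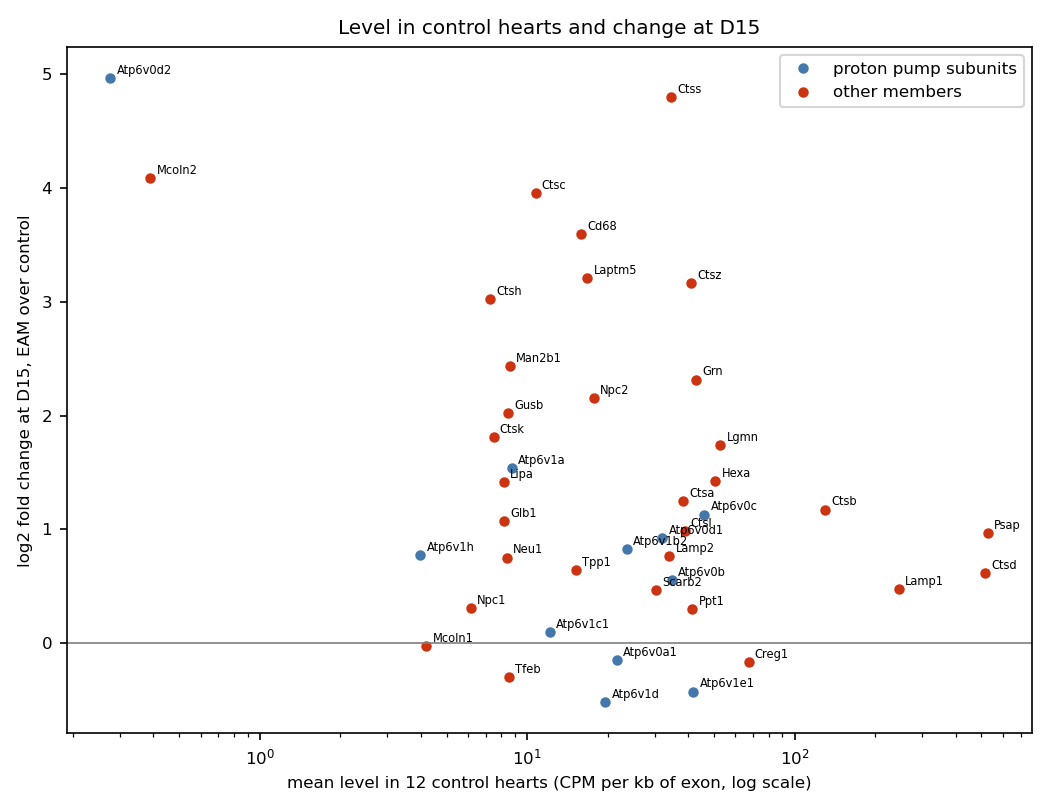
Mean level of each of the 42 genes in the 12 control hearts (x axis, CPM per kb of exon, log scale) against its fitted log2 fold change at D15 (y axis, EAM over control), with proton pump subunits in blue and other members in red. Psap, Ctsd, Lamp1 and Ctsb lie at the right with log2 fold changes between 0.48 and 1.18, and Ctss, Ctsc, Cd68, Mcoln2 and Atp6v0d2 lie above 3.5 at control levels under 35 CPM per kb.

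EAM and control hearts were compared at each time point to ask when the lysosomal genes moved. A gene is called induced or repressed where its Benjamini-Hochberg adjusted p (FDR) in edgeR's quasi-likelihood test was under 0.01 and its change at least 2-fold, the limits the study used. At D10, 0 of the 42 genes passed, where 0% of 15029 genes tested passed, and the median log2 fold change was 0.14 over the 42 and -0.01 over all genes. At an unadjusted p under 0.05, 11 were higher and 0 lower (9.49% and 5.67% of all genes), and DESeq2 and limma-voom called 0 of the 42. Over all 15029 genes DESeq2 called 48 induced and 4 repressed, and limma-voom 0 of either. The likelihood ratio test of edgeR called 45 induced and 2 repressed, 0 of them on the list. The study itself, with edgeR and these limits, reported a group of genes induced from D10 on and pathways active at D10. At D15, 21 were induced and 0 repressed, against 18.1% and 12.9% of 15693 genes tested, with medians of 1.03 and 0.02. At D21, 13 were induced and 0 repressed, against 4.3% and 1.3% of 15266 genes tested, with medians of 0.74 and -0.01. All 13 were among the 21 induced at D15. Both counts include Atp6v0d2, which had too few reads in controls to pass the filter without its EAM hearts. The D21 count moved when single hearts were left out: it was 0 without any 1 of the 4 control hearts or without EAM heart 1 or 2, 3 without EAM heart 4 and 18 without EAM heart 3, while at D15 it stayed between 20 and 24. The median log2 fold change of the list at D21 stayed between 0.65 and 0.82 in these fits. The D21 calls over all genes moved with it, from 657 induced to 0, 0, 0 and 2 without control heart 1, 2, 3 or 4, to 5, 19 and 303 without EAM heart 1, 2 or 4, and to 1480 without EAM heart 3. Of the other tools, limma-voom called 3 members at D21 (Ctsb, Ctss and Laptm5) and 80 genes in all, DESeq2 called 17 and 1364, and edgeR with library sizes from total counts 10 and 595.

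Beyond the 2-fold limit, the test placed most of the list on the higher side at D15. At an FDR under 0.01 alone, 34 genes were higher and 3 lower in D15 EAM hearts (33.3% and 31.2% of all genes), the 3 being Atp6v1d, Atp6v1e1 and Tfeb, and at an unadjusted p under 0.05 35 were higher and 3 lower (39.1% and 37.3%). At D21 16 were higher and 0 lower on FDR alone (4.94% and 3.43%), and 35 and 0 at an unadjusted p under 0.05 (25.4% and 21.6%). The 5 that did not pass on FDR at D15 were Ctsd, Creg1, Atp6v1c1, Atp6v0a1 and Mcoln1. In 35 genes all 4 EAM hearts lay above all 4 controls at D15 and in 3 below (34.6% and 35.9% of all genes). At D21 32 lay above and 0 below (17.8% and 18.7%), and at D10 only Atp6v0d1 lay above (4.41%) and 0 below (3.75%). Counted heart by heart, 35 or 36 genes exceeded every control of their day in each D15 EAM heart and 35 to 40 in each D21 EAM heart, where 40.9% to 43.4% and 33.9% to 39.3% of all genes tested did. The D10 EAM hearts 1 to 4 had 30, 19, 32 and 2, against 37.2%, 25.8%, 33.9% and 21% of all genes.

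**Figure D2:**
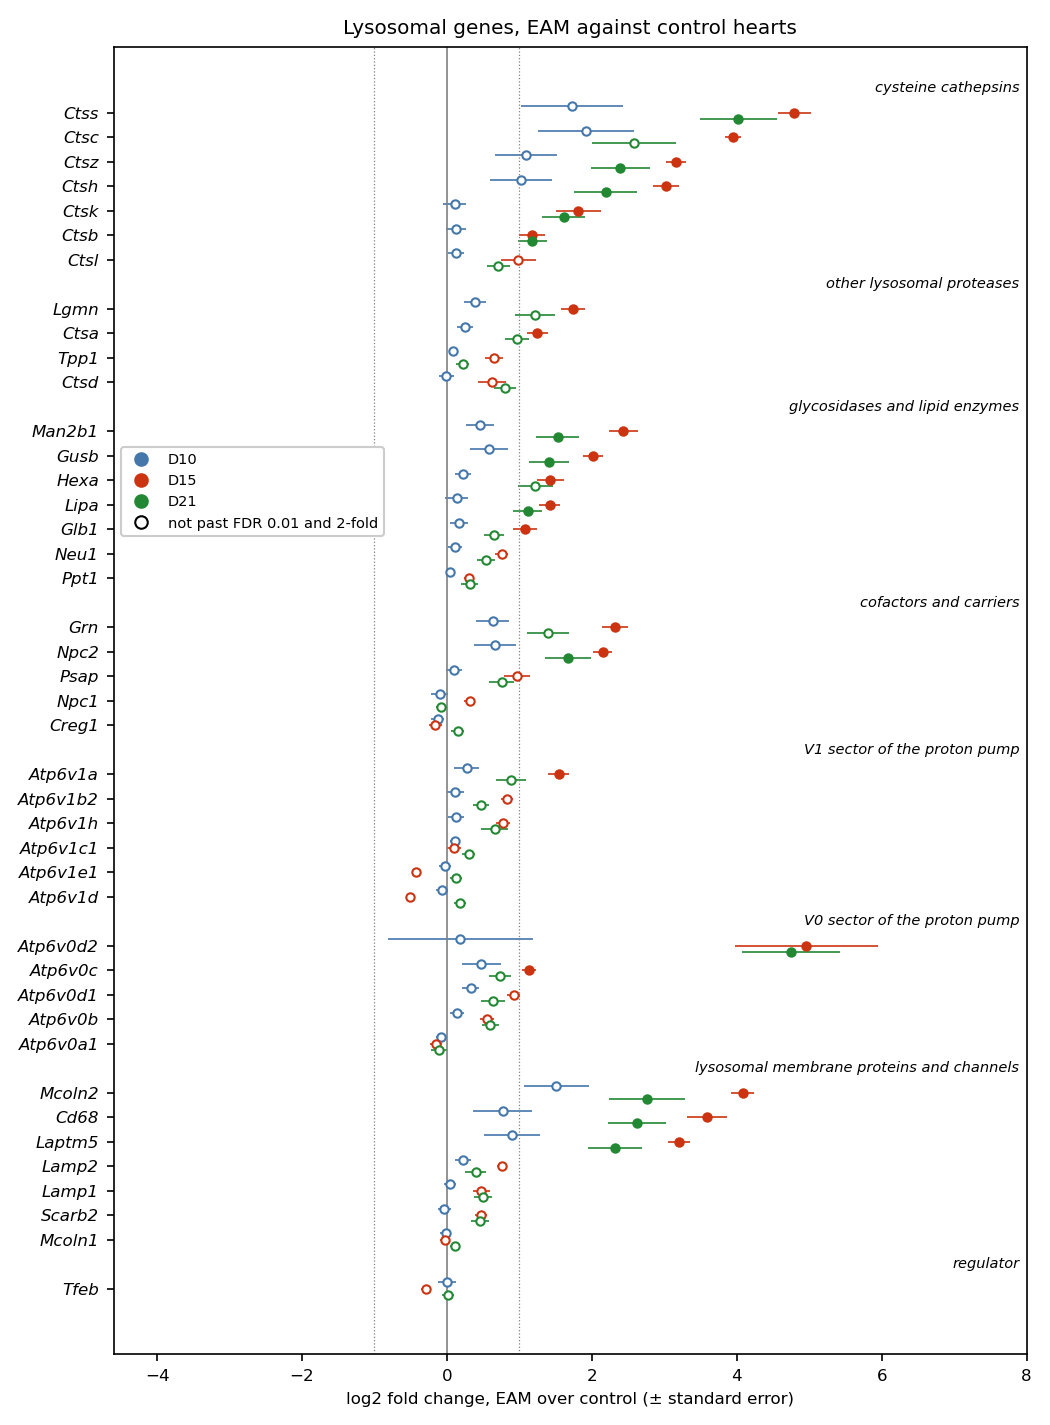
Fitted log2 fold change (x axis, EAM over control, with its standard error as a bar) of each of the 42 genes (y axis, grouped by role) at D10 in blue, D15 in red and D21 in green, with filled points for genes past the FDR and 2-fold limits and dotted lines at 2-fold. No D10 point is filled, 21 D15 points and 13 D21 points are, and Atp6v1d and Atp6v1e1 are the genes furthest to the left at D15.

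The cysteine cathepsins, papain-like proteases, had the highest median log2 fold change of the classes with more than 1 gene, 3.02 at D15 and 2.19 at D21. At D15, 6 of the 7 were induced (18.1% of all genes), with log2 fold changes from 1.18 to 4.80, and Ctsl was just short of 2-fold. Ctss, a protease of antigen-presenting cells that trims the invariant chain of MHC class II, measured 34.7, 38.4, 39.5 and 40.4 CPM in the D15 controls and 1141, 1281, 644 and 1069 in the D15 EAM hearts. Its D21 values were 38.4, 40.8, 29.9 and 53.1 in controls and 935, 445, 186 and 1001 in EAM hearts. The groups did not overlap on either day, and the log2 fold changes were 4.80 ± 0.22 (SE, n = 4 against 4, edgeR FDR 1.52e-07) at D15 and 4.02 ± 0.53 (edgeR FDR 0.00454) at D21. At D10 the controls measured 115, 56.5, 44.7 and 32.2 and the EAM hearts 536, 69.4, 152 and 70.8, so that control heart 1 overlapped the EAM group and the difference did not pass (log2 fold change 1.73 ± 0.71, edgeR FDR 0.328). This value was 0.64 without EAM heart 1 and 2.21 without control heart 1. Ctsc, whose product activates the granule proteases of neutrophils and lymphocytes, rose from 48.4 to 53.3 CPM in D15 controls to 680.5 to 890.4 in EAM hearts (log2 fold change 3.95 ± 0.11, edgeR FDR 1.38e-08). At D21 its EAM hearts ranged from 74.1 in heart 3 to 689 in heart 4, and it did not pass (log2 fold change 2.58 ± 0.58, edgeR FDR 0.0138).

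Ctsz and Ctsh, which trim peptides from their ends, had D15 log2 fold changes of 3.16 ± 0.13 and 3.02 ± 0.18 (edgeR FDR 9.52e-08 and 7.46e-07) and were induced again at D21 with 2.39 ± 0.41 and 2.19 ± 0.43 (edgeR FDR 0.00685 and 0.00969). Ctsk, the collagen-degrading cathepsin best known from osteoclasts, overlapped between groups at D10, where controls measured 9.19 to 11.6 CPM and EAM hearts 8.29 to 13.4. At D15 its controls measured 13.7, 9.39, 13.8 and 10.5 CPM and its EAM hearts 49.5, 56.7, 18.7 and 37.7. At D21 they measured 11.7, 11.9, 11.7 and 12.7 against 51.9, 30.8, 18.1 and 42.7. EAM heart 3 was the lowest on both days and still above every control, and Ctsk was induced at D15 and D21 (log2 fold changes 1.81 ± 0.31 and 1.61 ± 0.29, edgeR FDR 0.000533 and 0.00776). Beside it, 5 of the 7 osteoclast markers listed passed the filter at D15 and all 5 were induced (18.1% of all genes), among them Acp5, a lysosomal acid phosphatase, from 1.12 to 2.6 CPM in controls to 23.3 to 109 in EAM hearts. The 7 together summed to only 9.07 to 12.7 CPM in D15 controls. A gene that low can pass the filter through its EAM hearts, so this count may be in part set by the filter. Calcr, the calcitonin receptor and a defining osteoclast marker, was at most 0.624 CPM in any D15 heart and too low to test there, as was Oscar.

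Ctsb and Ctsl, the cathepsins that most tissues express, had the smallest log2 fold changes of the class at D15. Ctsb measured 723, 752, 762 and 771 CPM in D15 controls and 1701, 2078, 1134 and 1700.0 in EAM hearts, and at D21 738, 763, 680.0 and 773 against 2207, 1403, 1232 and 1719. No EAM heart of either day fell into the control range, and the log2 fold change was 1.18 at both, with standard errors of 0.18 and 0.20 (edgeR FDR 0.000265 and 0.00678). Ctsl had 228 to 279.7 CPM in D15 controls and 445, 762, 309.8 and 422 in EAM hearts, a log2 fold change of 0.98 ± 0.24 (edgeR FDR 0.00431).

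Among the other proteases, the carboxypeptidase Ctsa and Lgmn, an asparaginyl endopeptidase that activates cathepsins, were induced at D15 (log2 fold changes 1.25 ± 0.15 and 1.74 ± 0.16, edgeR FDR 5.82e-05 and 1.29e-05), and Tpp1, a peptidase that removes tripeptides, was higher by less than 2-fold (0.64, edgeR FDR 0.00115). At D21 0 of the 4 reached the limits (4.3% of all genes), Ctsa and Ctsd passing on FDR alone (4.94%). Ctsd, one of the most abundant transcripts of the list, passed on FDR at D21 and not at D15. Its D15 controls measured 1108, 1198, 1267 and 1292 CPM and its EAM hearts 1803, 2448, 1299 and 1725, of which heart 3 lay only just above the highest control (log2 fold change 0.62 ± 0.19, edgeR FDR 0.0161). Its D21 controls measured 1109, 1145, 1026 and 1097 and its EAM hearts 2323, 1679.5, 1719.5 and 1783, all clear of the controls (log2 fold change 0.80 ± 0.15, edgeR FDR 0.00897). The difference between these effects was 0.20 ± 0.20 (edgeR FDR 0.472), so the effects of the 2 days did not differ beyond the spread between hearts.

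**Figure D3:**
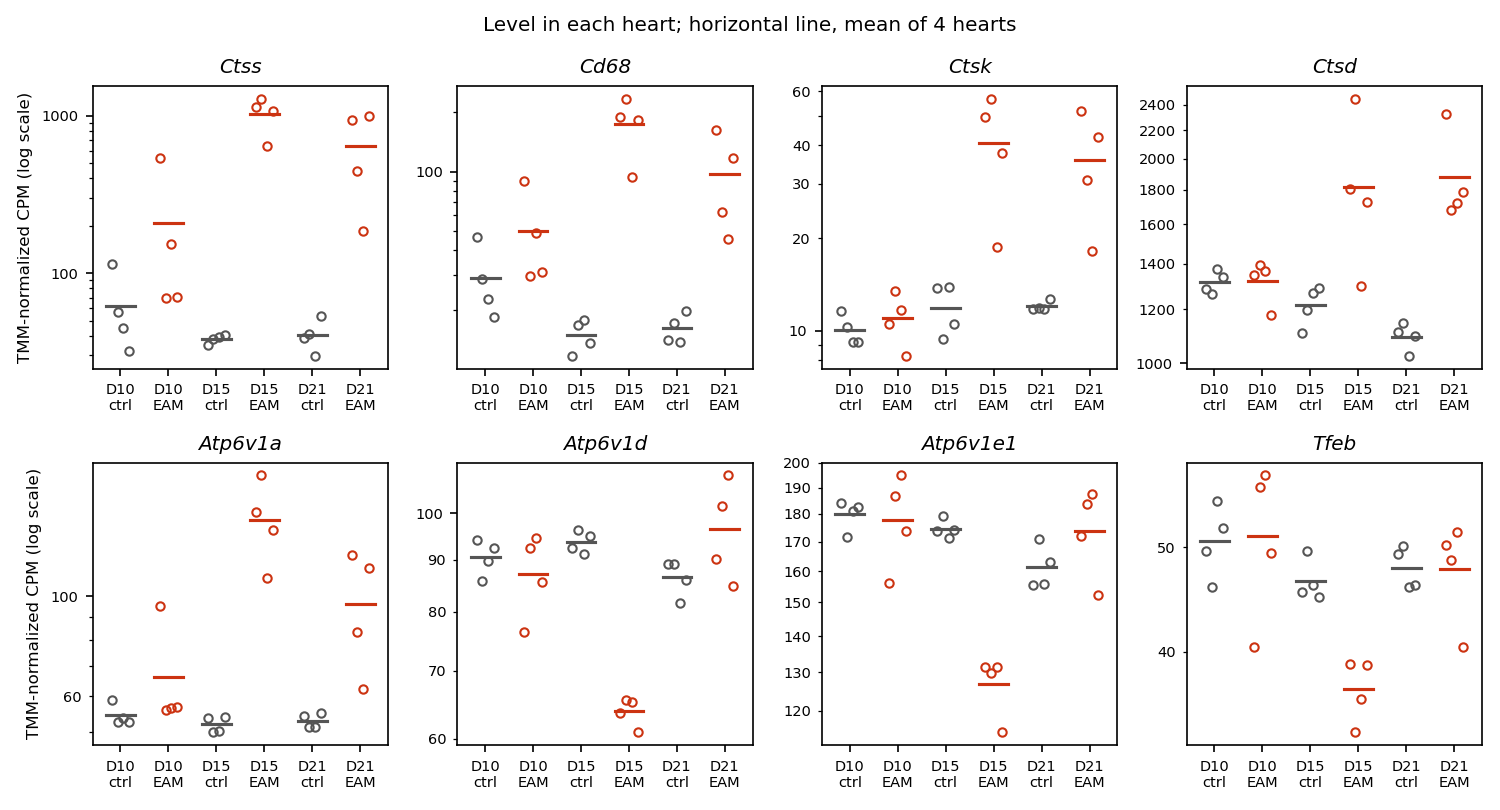
TMM-normalized CPM (y axes, log scale, a separate range for each gene) of 8 genes in every heart of the 6 groups (x axes), controls in grey and EAM in red, with the mean of 4 hearts as a line. Ctss, Cd68, Ctsk and Atp6v1a are above the controls of the day in every D15 and D21 EAM heart, while Atp6v1d, Atp6v1e1 and Tfeb lie below the D15 controls at D15 and overlap them at D10 and D21.

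Of the glycosidases and lipid enzymes, 5 of 7 were induced at D15 (18.1% of all genes) and the others, Neu1, a sialidase, and Ppt1, a thioesterase, were higher by less than 2-fold. Man2b1, the lysosomal α-mannosidase, had the largest of these log2 fold changes with 2.44 ± 0.20 (edgeR FDR 5.03e-06). Gusb, β-glucuronidase, measured 38, 40.4, 38.5 and 37.6 CPM in D15 controls against 156, 187, 112 and 155 in EAM hearts, and at D21 36.9, 35.8, 39.1 and 41.1 against 125, 76.5, 55.7 and 140.5. Lipa, lysosomal acid lipase, which frees cholesterol and fatty acids from lipoproteins, measured 51.5, 52.8, 53.6 and 59.7 CPM in D15 controls against 154, 169.7, 100.4 and 141, and at D21 52.3, 51.1, 48.2 and 60.4 against 154, 102, 79.7 and 115. Neither gene overlapped between groups on either day, with the lowest EAM value in heart 3 each time. The log2 fold changes at D15 and D21 were 2.02 ± 0.14 and 1.41 ± 0.28 for Gusb (edgeR FDR 1.71e-06 and 0.00973) and 1.42 ± 0.15 and 1.11 ± 0.20 for Lipa (edgeR FDR 2.39e-05 and 0.00715). Hexa and Glb1, enzymes of ganglioside breakdown, were induced at D15 (1.43 and 1.08) and not at D21 (1.22 and 0.65, edgeR FDR 0.01 and 0.0119).

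Of the cofactors and carriers, Grn and Npc2 were induced at D15. Grn, the gene of progranulin, a secreted protein that is cut to granulins in lysosomes, measured 134, 121, 149 and 125 CPM in D15 controls and 659.6, 812, 431 and 665 in EAM hearts (log2 fold change 2.32 ± 0.18, edgeR FDR 4.39e-06). Npc2, which binds cholesterol in the lumen and hands it to NPC1, measured 92.9, 96.7, 97.2 and 88 against 457, 457, 306 and 398 (2.15 ± 0.13, edgeR FDR 8.03e-07). Its membrane partner Npc1 measured 61.4, 58.6, 68.2 and 67.3 in D15 controls and 73.1, 87.1, 71.5 and 77.3 in EAM hearts. The partners thus differed in size of change, Npc1 being higher by a log2 fold change of 0.31 ± 0.08 (edgeR FDR 0.00614). At D21 Npc2 remained induced (1.67 ± 0.32, edgeR FDR 0.00893) and Npc1 did not differ beyond the spread between hearts (-0.08 ± 0.08, edgeR FDR 0.456). Creg1, a lysosomal glycoprotein with no known catalytic role, overlapped between groups on all 3 days, with log2 fold changes of -0.13, -0.16 and 0.15.

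Of the 11 genes of the proton pump 3 were induced at D15 (Atp6v1a, Atp6v0c and Atp6v0d2), where 18.1% of all genes were, and 7 were higher and 2 lower on FDR alone (33.3% and 31.2% of all genes). The median log2 fold change was 0.78 over the 11 and 1.25 over the 31 other genes of the list, a difference that was not tested. Summed over the 11 subunits, the pump took 949.5 to 1014 CPM in D15 controls and 1200 to 1564 in EAM hearts. In the V1 sector, the catalytic subunit gene Atp6v1a measured 53.6, 49.9, 50.3 and 54 CPM in D15 controls and 154, 185, 109.7 and 140.1 in EAM hearts (log2 fold change 1.54 ± 0.14, edgeR FDR 1.09e-05). Atp6v1b2, the other ATP-binding subunit, and Atp6v1h, a regulatory one, were higher by less than 2-fold (0.83 and 0.78, edgeR FDR 1.47e-05 and 7.38e-05), and Atp6v1c1 did not pass (0.10, edgeR FDR 0.36).

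Atp6v1d, the central rotor of V1, and Atp6v1e1, part of its peripheral stalk, went the other way. Atp6v1d measured 92.4, 96.3, 91.2 and 94.9 CPM in D15 controls and 63.6, 65.5, 65.3 and 60.9 in EAM hearts. Atp6v1e1 measured 174, 179, 171 and 174 against 131, 129.9, 131 and 115. In both genes all 4 EAM hearts were below all controls, by log2 fold changes of -0.52 ± 0.05 (edgeR FDR 1.45e-05) and -0.42 ± 0.06 (edgeR FDR 0.000167), and under library sizes from total counts these were -0.37 and -0.27, still lower at an edgeR FDR under 0.01. At D21 the 2 genes measured 90.1, 102, 109 and 84.8 and 172, 184, 188 and 152 in EAM hearts, overlapping controls of 81.7 to 89.1 and 156 to 171. The D21 effect exceeded the D15 effect by 0.71 ± 0.10 for Atp6v1d (edgeR FDR 0.000638) and 0.57 ± 0.10 for Atp6v1e1 (edgeR FDR 0.00137), the only members with a difference between D15 and D21 at an FDR under 0.01, where 8.67% of 16318 genes had a larger D21 effect. Beside this fall at D15, the summed CPM of 8 cardiomyocyte markers was 28340 to 33300 in D15 controls and 8035 to 19690 in EAM hearts, and 14720 to 34240 in D21 EAM hearts against 29300 to 31340. Their part in the pump values was not tested.

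The V0 sector holds alternative forms of some subunits. Atp6v0d1, the d subunit of most tissues, measured 56.8, 57.3, 56.6 and 58.4 CPM in D15 controls and 110.2, 122, 91.2 and 98.3 in EAM hearts, a log2 fold change of 0.92 ± 0.09 (edgeR FDR 1.6e-05). Atp6v0d2, its paralogue known from osteoclasts and macrophages, measured 0.104, 0.473, 1.71 and 0.412 in D15 controls and 15.4, 52, 2.7 and 13.5 in EAM hearts. At D21 its controls measured 0.203, 0.288, 0.263 and 0.461 and its EAM hearts 18.3, 4.03, 5.28 and 4.69. It was induced on both days (log2 fold changes 4.96 ± 0.98 and 4.75 ± 0.68, edgeR FDR 0.00133 and 0.005), from levels of few reads and with a wide spread between EAM hearts. The D15 value was 4.001 without EAM heart 2 and 6.053 without control heart 3. Per kb of exon, Atp6v0d2 was 0.00121 to 0.02 of Atp6v0d1 in D15 controls and 0.0196 to 0.281 of it in EAM hearts. Of the a subunits, Atp6v0a1 measured 129, 140.2, 146 and 158 CPM in D15 controls and 117, 132, 119 and 137 in EAM hearts and did not pass (-0.15 ± 0.08, edgeR FDR 0.138), while Tcirg1, the a subunit gene of osteoclasts and no member of the list, rose from 15.3 to 24.6 CPM to 112 to 180 (2.96, edgeR FDR 1.17e-06). The ratio of Tcirg1 to Atp6v0a1 per kb was 0.169 to 0.241 in D15 controls, 1.35 to 1.94 in D15 EAM hearts and 0.449 to 1.47 in D21 EAM hearts. Atp6v0c, the proteolipid of the proton-carrying ring, was induced at D15 (1.13, edgeR FDR 9.3e-06) and Atp6v0b was higher by less than 2-fold (0.56, edgeR FDR 0.000595). Atp6v0c has a processed pseudogene, so its reads may be split between loci.

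**Figure D4:**
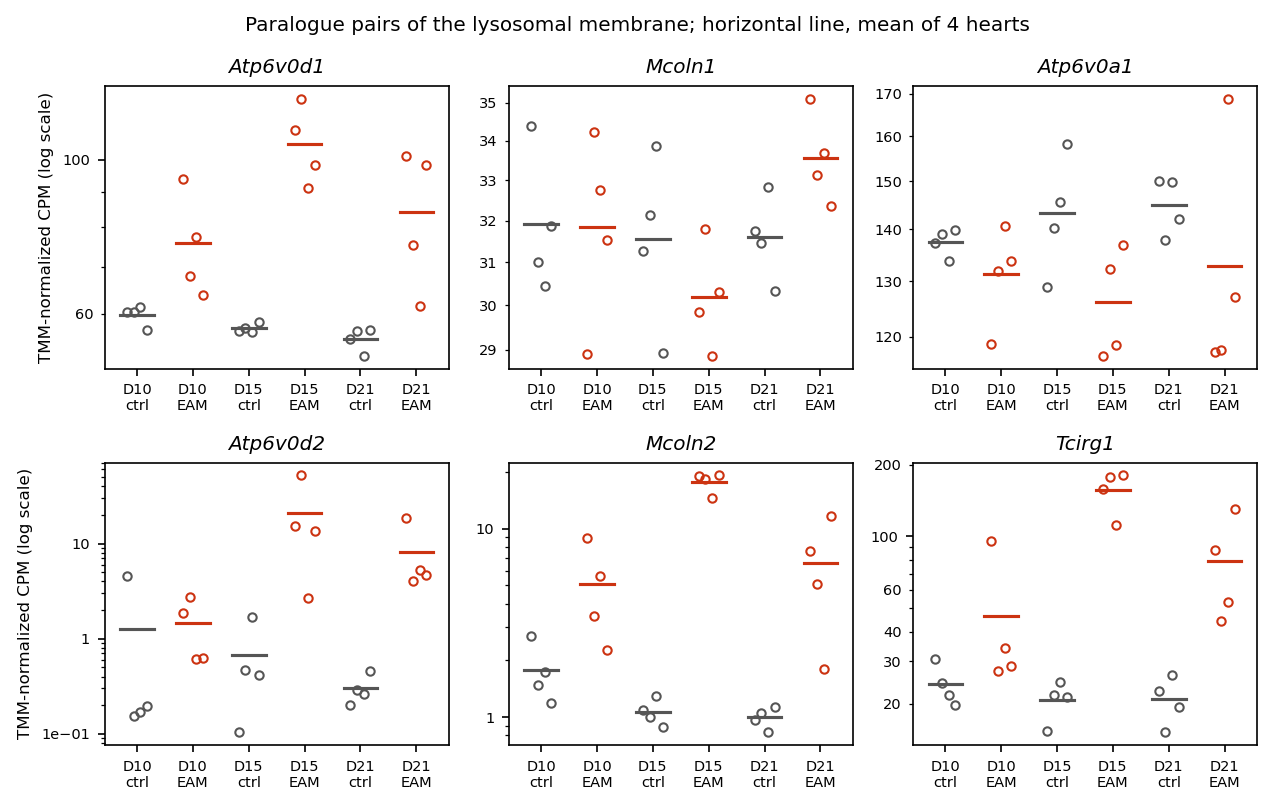
TMM-normalized CPM (y axes, log scale, a separate range for each gene) of 3 pairs of related subunits or channels in every heart of the 6 groups (x axes), controls in grey and EAM in red, with the mean of 4 hearts as a line. In the top row Mcoln1 and Atp6v0a1 overlap between EAM and control hearts at D15 while Atp6v0d1 is 91.2 to 122 against 56.6 to 58.4, and in the bottom row Atp6v0d2, Mcoln2 and Tcirg1 lie above the D15 controls in every D15 EAM heart.

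Of the membrane proteins, 3 of 7 were induced on both D15 and D21 (18.1% and 4.3% of all genes). Cd68, a mucin-like glycoprotein of macrophage lysosomes that is used to stain these cells, measured 11.7, 16.7, 17.7 and 13.6 CPM in D15 controls and 189.7, 234, 94.2 and 182 in EAM hearts, and 14, 17.1, 13.7 and 19.7 against 162, 62.8, 45.5 and 117 at D21. Laptm5, a lysosomal protein of blood cells, measured 44.6, 60.2, 57.8 and 54.8 against 554, 507, 376 and 512 at D15, and 58.5, 57, 45.1 and 69.5 against 383, 202, 127 and 408 at D21. Both were clear of the controls in all 8 EAM hearts of these days, with log2 fold changes of 3.59 ± 0.28 and 2.62 ± 0.40 for Cd68 (edgeR FDR 3.88e-06 and 0.00543) and 3.20 ± 0.15 and 2.32 ± 0.37 for Laptm5 (edgeR FDR 1.58e-07 and 0.00603). Mcoln2 measured 1.09, 1, 1.3 and 0.884 CPM in D15 controls and 19.1, 18.3, 14.5 and 19.2 in EAM hearts (4.08 ± 0.15, edgeR FDR 4.71e-08), and 7.59, 5.07, 1.81 and 11.8 in D21 EAM hearts (2.76 ± 0.53, edgeR FDR 0.00893). Mcoln1, the calcium-releasing channel mucolipin 1 found in all cells, measured 31.3, 32.1, 33.9 and 28.9 in D15 controls and 29.8, 31.8, 28.9 and 30.3 in EAM hearts, with a log2 fold change of -0.02 ± 0.07 (edgeR FDR 0.751). Mcoln2 was thus 0.0702 to 0.0878 of Mcoln1 per kb in D15 controls and 1.16 to 1.47 of it in D15 EAM hearts.

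Lamp1, Lamp2 and Scarb2, glycoproteins that line the lysosomal membrane of every cell, were higher at D15 by less than 2-fold. Lamp1 measured 628, 661, 671 and 673 CPM in controls and 938, 1017, 757 and 855 in EAM hearts (log2 fold change 0.48 ± 0.11, edgeR FDR 0.00357), and Lamp2 321, 302, 308 and 309 against 528, 538, 491 and 494 (0.76 ± 0.07, edgeR FDR 1.12e-05). At D21 Lamp1 measured 625, 648, 583 and 652 against 1018, 815, 768 and 878 and Lamp2 315, 313, 296 and 329 against 445, 381, 309 and 484. Lamp1 no longer passed although its groups did not overlap (0.49 ± 0.12, edgeR FDR 0.0197), and Lamp2 overlapped in EAM heart 3 (0.39 ± 0.15, edgeR FDR 0.0707).

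Tfeb, the transcription factor that binds the CLEAR element and controls lysosomal genes, was not among the genes that rose. It measured 45.5, 49.6, 46.1 and 44.9 CPM in D15 controls and 39, 33.7, 36.2 and 38.9 in EAM hearts, all 4 below the controls (log2 fold change -0.29 ± 0.07, edgeR FDR 0.00329). At D10 and D21 the groups overlapped, with log2 fold changes of 0.00 ± 0.12 and 0.02 ± 0.09. The D15 difference was the smallest that passed in this direction, and with library sizes from total counts it was -0.15 (edgeR FDR 0.0783). It also missed the limit without D15 EAM heart 2 or 3 or control heart 2 (edgeR FDR 0.0136, 0.0112 and 0.0123). Transcript levels do not measure the activity of TFEB, which is set by its phosphorylation and place in the cell.

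Whether the effect of EAM grew between days was tested in a fit of all 24 hearts. From D10 to D15 it grew for 15 of the 42 genes and shrank for 0 at the same limits, against 5.3% and 7.56% of 16318 genes, with a median difference of 0.82 over the list and -0.03 over all genes. On FDR alone it grew for 22 and shrank for 2, Atp6v1d and Atp6v1e1 (9.4% and 17% of all genes). The 15 were 4 cysteine cathepsins (Ctss, Ctsz, Ctsh and Ctsk), Lgmn, 4 glycosidases and lipid enzymes (Man2b1, Gusb, Lipa and Hexa), Grn, Npc2, Atp6v1a, Cd68, Laptm5 and Mcoln2. Of these, Ctss had the largest difference with 3.02 ± 0.79 (edgeR FDR 0.00542), followed by Cd68 with 2.77 ± 0.56 (edgeR FDR 0.0019). Leaving out each of the 24 hearts in turn, Cd68 passed in 24 of the fits and Ctss in 13, with edgeR FDR up to 0.0163. Ctsh passed in only 5 (edgeR FDR up to 0.0212), Npc2 in 11, Ctsz in 13 and Gusb in 18, and the rest in 23 or 24. Ctss ranged from 2.54 to 4.11 and was lost without D10 control heart 1, D10 EAM heart 2, 3 or 4, D15 EAM heart 1, 2 or 4, or any 1 of the D15 controls. The count of 15 fell to 9 without D10 control heart 1 or without D15 EAM heart 2, and to 10 without D10 EAM heart 2 or 4, while that over all genes fell from 865 to 512, 546, 488 and 486. From D15 to D21 0 genes passed in either direction (2.84% and 0.968% of all genes), 4 being larger and 7 smaller at an unadjusted p under 0.05 (23.5% and 17.4%), and the median difference was -0.27. On FDR alone 2 were larger, Atp6v1d and Atp6v1e1, and 0 smaller (8.67% and 3.79%). From D10 to D21 0 passed as well (0.0674% and 0.784%), with 24 larger and 0 smaller at an unadjusted p under 0.05 (8.42% and 9.62%). From D15 to D21 DESeq2 and limma-voom called 0 of the list, with 594 larger and 251 smaller effects over all genes by DESeq2 and 360 and 150 by limma-voom. From D10 to D21 DESeq2 called 1 larger effect of the list and limma-voom 0, with 82 larger and 185 smaller over all genes by DESeq2 and 4 and 88 by limma-voom.

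Control hearts of different days were compared to see how far the list moved without the peptide. Of the 41 genes tested 0 passed at D15 or D21 against D10, where 0% of 14926 genes were higher or lower at D15 and 0.77% and 0.292% of 15063 at D21. At an unadjusted p under 0.05, 15 genes were lower and 0 higher at D15 and 16 lower and 1 higher, Ctsk, at D21 (8.27% and 8.21%, then 12.1% and 14.7% of all genes), and DESeq2 and limma-voom called 0 of the list. Over all genes DESeq2 called 32 higher and 91 lower at D15 and 157 and 97 at D21, and limma-voom 0 and 0, then 95 and 22. On FDR alone 0 passed at D21 in either direction (1.63% and 0.624% of all genes). Without overlap, 0 genes lay above and 5 below the D10 controls at D15 (3.44% and 5.73%), and 1 above and 11 below at D21 (9.13% and 7.83%). Cd68 measured 46.6, 28.6, 22.5 and 18.2 CPM in D10 controls, all above the D15 controls given above. D10 control heart 1 was the highest of its group for Ctss, Ctsc, Cd68, Laptm5 and Atp6v0d2 (4.57 CPM against 0.154 to 0.198 for the last), and when D10 EAM hearts were set against all 12 controls 7 genes were induced, namely Ctss, Ctsc, Ctsz, Ctsh, Cd68, Laptm5 and Mcoln2, among 636 of 15545 genes. Controls of 3 days stand together in that comparison, so that day and treatment are mixed in it.

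EAM hearts of a day differed among themselves in the summed level of the list. At D15, EAM heart 2 had the highest summed CPM of the 42 genes with 19570 and heart 3 the lowest with 12260, against 7023 to 7574 in controls. At D21 heart 1 had 16580 and heart 3 9985, against 6743 to 7386, and heart 3 also had the lowest Ptprc of its group, 48.9 CPM against 96.3 to 229. Even in that heart 38 of the 42 genes exceeded every D21 control, where 33.9% of all genes tested did. The median log2 ratio to the control mean over the 42 genes was 1.01, 1.31, 0.63 and 1.01 in the 4 D15 EAM hearts, 1.02, 0.51, 0.36 and 0.91 at D21 and 0.40, 0.13, 0.18 and -0.01 at D10.

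**Figure D5:**
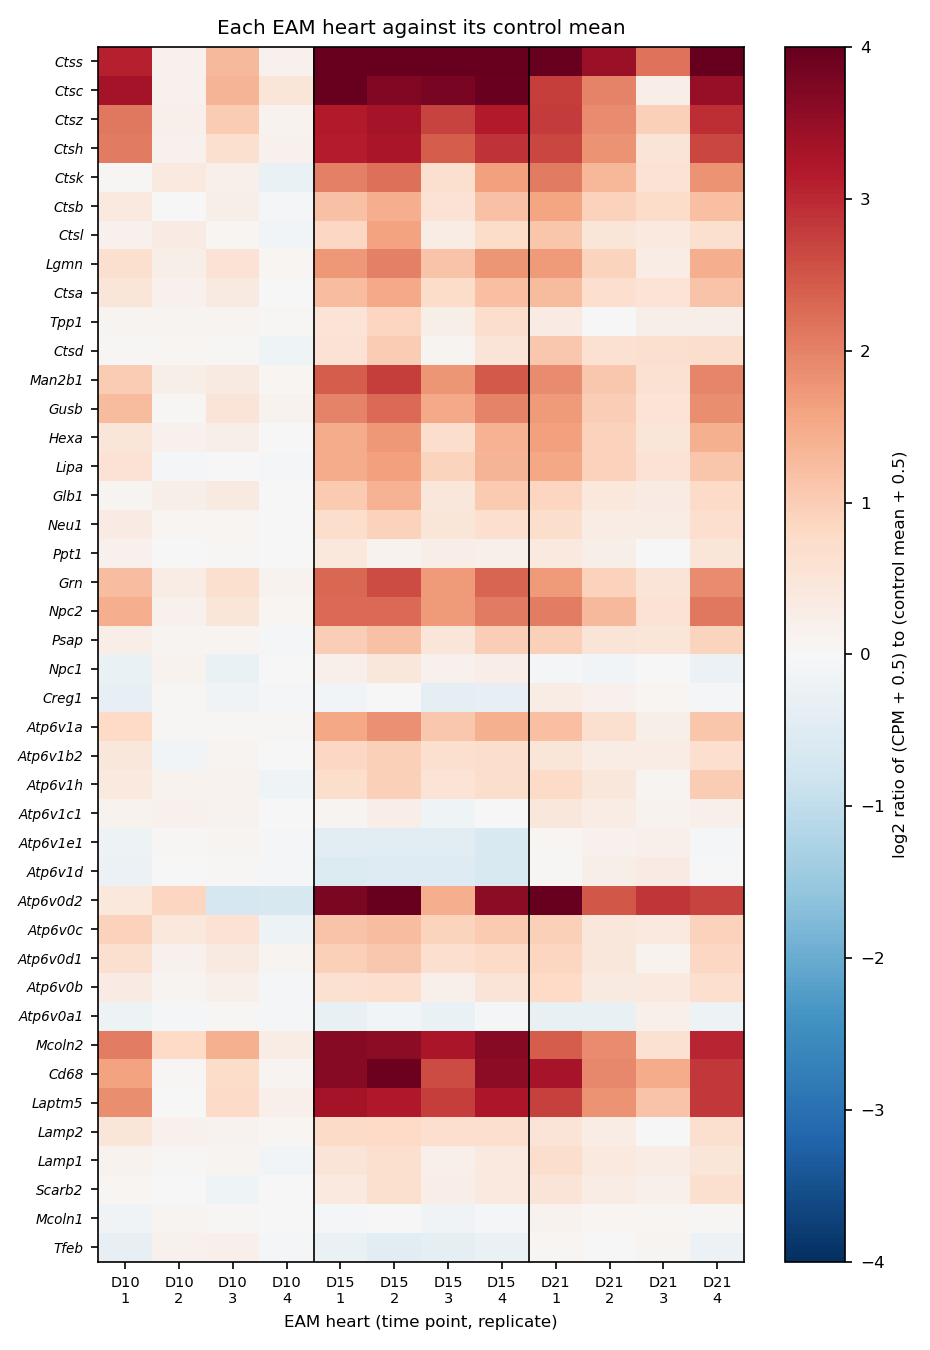
Log2 ratio of each EAM heart (columns, by time point and replicate) to the control mean of its day for the 42 genes (rows, in the order of the plot of fold changes), with 0.5 CPM added to both and colours saturating at 4. Red is higher and blue lower: D10 heart 1 is the reddest of its day, the D15 columns are red for most genes, pale or blue for Atp6v1d, Atp6v1e1, Atp6v1c1, Atp6v0a1, Creg1, Mcoln1 and Tfeb, and D21 heart 3 is the palest of its day.

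Other genes of the same pathway gave the following, beside 18.1% of all genes induced and 12.9% repressed at D15. Their lists, like the members, were chosen with earlier results of these data known. Of 31 further lysosomal hydrolases and activators tested at D15, 18 were induced and 2 repressed, and their median log2 fold change was 1.15. The largest were Acp5 (5.07, edgeR FDR 1.53e-05) and Ctsw, a cathepsin of cytotoxic lymphocytes (4.42, edgeR FDR 1.47e-05), and the lowest Ctsf, a cysteine cathepsin (-1.22, edgeR FDR 4.43e-06), and Smpd1, acid sphingomyelinase (-1.05, edgeR FDR 1.53e-06). At D21 6 were induced and 0 repressed (4.3% and 1.3% of all genes). Of 18 further membrane proteins 7 were induced and 1 repressed at D15, led by Slc11a1, the metal transporter NRAMP1 of phagosomes (4.05), with Mfsd8 lowest (-1.03). Of 9 further pump subunits 2 were induced, Tcirg1 and Atp6ap2 (2.96 and 1.77), and 0 repressed. Among 12 genes that deliver enzymes to lysosomes M6pr, the cation-dependent mannose 6-phosphate receptor, and Nagpa, which exposes the mannose 6-phosphate tag, were induced (1.51 and 1.02) and 0 repressed.

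Of 17 regulators tested, Tfeb's relatives and the mTORC1 machinery that restrains them among these, 2 were induced and 2 repressed at D15, where 18.1% and 12.9% of all genes were. Tfec, a relative of Tfeb found in macrophages, rose from 0.466 to 1 CPM in D15 controls to 26.3 to 46.9 in EAM hearts (log2 fold change 5.87, edgeR FDR 1.98e-07), and Tfe3 rose from 28.5 to 31.5 to 63.2 to 72.6 (1.21, edgeR FDR 4.42e-07). Mitf, the fourth relative, was lower by less than 2-fold, 52.3 to 59.5 CPM against 67.9 to 77.8 (-0.36, edgeR FDR 0.000566). The repressed genes were those of the GTPases RagB and RagD, Rragb (-2.47, edgeR FDR 0.00868) and Rragd (-1.43, edgeR FDR 1.84e-05). Of the cathepsin inhibitors, Cst7 and Cstb were induced at D15 (6.05 and 3.06) and at D21 (4.98 and 2.33), and Cst6 was repressed at D15 (-2.22).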

How the data were processed

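RNA of 24 mouse hearts was sequenced in 75 bp read pairs from a stranded library. Per the labels and the study's methods, the authors aligned reads to GRCm38 with HISAT2 2.0.4, removed duplicates with Picard and counted reads per Ensembl gene with featureCounts, and they deposited whole-number counts with no normalization. The per-heart and the joint form of the table held the same counts. Of 41480 features, 92 spike-in controls held 0 reads and were left out.

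Genes reaching 10 reads in 4 or more hearts of a fit were tested with edgeR 4.0.16 (quasi-likelihood test, TMM normalization, R 4.3.3), EAM against control within a time point, with Benjamini-Hochberg adjustment over all genes tested. Differences between time points came from a fit of all 24 hearts. Levels are TMM-normalized CPM, divided for comparisons between genes by the union exon length of GENCODE M21. Total counts were 15814863 to 24980864 per heart. The median biological coefficient of variation was 16.5%, 12.1% and 17.7% in the D10, D15 and D21 fits. DESeq2 1.42.0, limma-voom (limma 3.58.1), other normalizations, filters and limits, and fits without each heart were tried, and the scripts were tested on simulated data. An earlier form of edgeR's test was added after seeing the data.

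The members and all gene lists were chosen with earlier results of these data known. For closer description 19 members were picked by name, and others for the 3 highest and 3 lowest log2 fold changes at each time point, 25 genes in all. Of these, Ctsc is given mainly as ranges, Ctsl with a range for its controls and Creg1 by log2 fold changes only. The others have values in every D15 heart. From the other lists, the highest and lowest at D15 are named; Mitf, Tpp1, Neu1 and other members outside this rule were named after their values were seen. Tables and plots were made with Python 3.11.15, pandas 2.3.3, numpy 2.4.6 and matplotlib 3.10.9. The labels do not say whether hearts of a group came from separate litters or cages, so p-values measure the spread between these hearts.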

Additional observations from a re-analysis of the deposited data

Results flagged for a closer look

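Of 150 groups of 4 hearts (25 genes in 6 groups), 6 held a heart far from the other 3 by Dixon's ratio, where chance gives about 1 in 20. These were Ctsk in D21 control heart 4 (12.65 CPM), Atp6v0d2 in D10 control heart 1 (4.569 CPM), Atp6v1a and Lipa in D10 EAM heart 1 (95.19 and 88.25 CPM), Mcoln2 in D15 EAM heart 3 (14.52 CPM) and Atp6v1e1 in D15 EAM heart 4 (114.9 CPM). D10 EAM heart 1 also had the highest Ptprc of its group, as given above.

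The effect of EAM differed between D10 and D15 for 10 of the 25 genes in the test of the difference itself, out of 75 differences between time points examined. The 25 were picked in part by their log2 fold changes in these data, so their share cannot be set against that of all genes. Over all 42 members 15 had a larger effect at D15, where 5.3% of all genes did. The D15 log2 fold change exceeded that of D10 by 3.019 for Ctss, 2.775 for Cd68, 2.523 for Mcoln2, 2.258 for Laptm5 and 1.655 for Ctsk (edgeR FDR 0.005424, 0.001903, 0.004094, 0.00222 and 0.003744). For Grn, Npc2, Gusb, Lipa and Atp6v1a it exceeded it by 1.634, 1.443, 1.389, 1.231 and 1.22 (edgeR FDR 0.002283, 0.006717, 0.004795, 0.001954 and 0.002234). With each of the 24 hearts left out in turn, Npc2 passed in 11 of the fits, Ctss in 13, Gusb in 18, Mcoln2 in 23 and the other 6 genes in 24. Npc2, Ctss and Gusb were each lost without D10 control heart 1, D10 EAM heart 2, 3 or 4, or D15 EAM heart 2 or 4, Npc2 and Ctss also without D15 EAM heart 1 or any 1 of the D15 controls, Npc2 also without D10 control heart 2 or 3, and Mcoln2 without D10 control heart 1.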

How the results depend on the processing

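The count of lysosomal genes induced at D15 was 20 to 24 without any single heart and under each other tool, normalization and filter, and 34 with 3 repressed when no fold limit was set. At D21 the 13 became 3 with limma-voom, 17 with DESeq2 and 10 with library sizes from total counts, and 0 to 18 when single hearts were left out. At D10 the 0 became 7 against all 12 control hearts, where 636 of 15545 genes were induced. Larger effects at D15 than at D10 numbered 9 to 19 without single hearts, and 2 smaller effects appeared with no fold limit. Larger effects at D21 than at D15 numbered 2 with no fold limit. Larger effects at D21 than at D10 numbered 1 with the likelihood ratio test, with DESeq2 and at an FDR of 0.05, and 0 to 3 without single hearts. The cause was not tested. Library sizes from total counts moved the median of all genes at D15 from 0.02 to 0.17.

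With the replicate number as a block, 7 genes were induced at D21 (Atp6v0d2, Cd68, Ctss, Ctsz, Laptm5, Lipa and Mcoln2, with 645 of all genes against 657 without it), 21 at D15, and 16 had a larger effect at D15 than at D10. The numbers were not taken to pair the hearts, since same-numbered hearts had correlated deviations of 0.368, -0.077, -0.083 and 0.368 at D10, at most 0.035 at D15, and 0.097, 0.177, 0.303 and 0.232 at D21, 1 of these under the 0.1 required of every pair. As a hint from the data and not the design, 7 of 8 hearts at D21 correlated best with their own number in the other group, against 4 of 8 at D10 and 0 of 8 at D15.

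The log2 fold changes of some of the 25 genes changed sign. At D10 Ctsd was 0.006012 with DESeq2, 0.005994 with its size factors, 0.1376 against 12 controls, 0.004838 with no filter and 0.04896 with total counts. At D10 against 12 controls Ctsk was -0.04174, Mcoln1 0.01436, Npc1 0.01864 and Atp6v1e1 0.05537. With total counts Mcoln1 was 0.03499 and Atp6v1e1 0.0223 at D10, and Mcoln1 0.1255 and Atp6v0a1 0.006967 at D15. Tfeb was -0.008989 with limma-voom and -0.007879 with the replicate block at D10, and -0.00641 with no filter at D21. Without single hearts the D10 values ran from -0.03058 to 0.04132 for Ctsd, -0.001892 to 0.2157 for Ctsk, -0.2525 to 3.025 for Atp6v0d2, -0.04915 to 0.03015 for Mcoln1, -0.04836 to 0.103 for Tfeb, -0.04588 to 0.2066 for Lipa and -0.05789 to 0.0308 for Atp6v1e1. They ran from -0.05181 to 0.03029 for Mcoln1 at D15 and -0.02309 to 0.08289 for Tfeb at D21. At D21, 77 of 421 values fell short of the limits that their gene had passed, against 1 of 425 at D15 (Atp6v0d2 with limma-voom, 4.89). Atp6v0d2 had few reads in controls and a wide spread between EAM hearts, and why its call was lost was not tested.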

Other observations

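Markers of other cell types moved at the same time as the lysosomal genes. At D15 all 13 macrophage and monocyte markers, all 7 neutrophil markers and all 7 T cell markers were induced, with median log2 fold changes of 2.47, 3.42 and 4.47, where 18.1% of all genes tested were induced and 12.9% repressed. At D21 10, 1 and 7 of them were induced, with medians of 1.93, 2.04 and 3.89, where 4.3% of all genes were induced and 1.3% repressed. The 5 fibroblast markers summed to 1258 to 1462 CPM in D15 controls and 3139 to 6453 in EAM hearts, and 1 of the 5 was induced. Of the 8 cardiomyocyte markers 4 were repressed at D15, with a median of -1.33, and 0 at D21. The 4 endothelial markers summed to 858 to 1156 CPM in D15 controls and 591 to 649 in EAM hearts, and to 1063 to 1272 and 628 to 1034 at D21, and 1 of the 4 was repressed at D15 and 0 at D21. Mitochondrial genes took 6.1% to 7.14% of the counts in D15 controls and 3.19% to 4.31% in EAM hearts, and 5.45% to 5.79% and 3.92% to 6.77% at D21. The part of these markers and of the mitochondrial share in the lysosomal values was not tested.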
